A study of Mus musculus with 21 samples.

Results

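Expression in E14 mouse embryonic stem cells after 3 days of culture with vehicle was compared with expression in the same line under standard culture. Embryonic stem (ES) cells derive from the blastocyst and can form every tissue of the embryo. E14 is 1 established ES cell line, so every library shares 1 genetic background. The group of interest is 3 libraries labelled as given vehicle control for 3 days (vehicle day 3), and the cells they are set against are 3 untreated libraries kept in standard culture (ES). Neither group is labelled as given added vitamin B6 (VB6), which other groups of the series received as 20 µM pyridoxine. These 6 libraries were chosen by their labels and belong to 21 libraries in 7 groups of 3. No source used here gives the medium of either group, the vehicle, or how differentiation was started. Nothing in the labels ties the 3 libraries of a group to separate cultures, so the spread between libraries may be technical. The p-values rest on that spread as estimated over all 21 libraries, not over these 6 alone. The comparison asks what changes when these cells leave standard culture without added VB6. Whether the medium itself held the vitamin is not known.

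Total expected counts were 17211701 to 19554075 per library in vehicle day 3 and 18311471 to 18641851 in ES. Levels are given as CPM, each gene's counts over its library size as scaled by edgeR, with the SD over 3 libraries where a mean is given. Log2 fold changes are vehicle day 3 over ES, with their SE, and adjusted p-values come from edgeR's quasi-likelihood test with Benjamini-Hochberg adjustment over all genes tested. A gene is called when its adjusted p is under 0.05. A stricter call asks for a change shown to be beyond 2-fold. A count of 0 allows up to 3 counts in a library, or 0.172 CPM on average in vehicle day 3 and 0.157 CPM in ES, and these limits cover counting error only. Pairs of libraries differed by a chi-square per gene of 2.96 to 5.52 within vehicle day 3 and 5.42 to 14.3 within ES, where counting error alone gives about 1. The exact intervals given below for ratios of summed counts cover counting error only and leave out this wider spread. Some technical measures moved with the groups. The mitochondrial share of counts was 2.34 to 2.57% in vehicle day 3 and 1.51 to 1.90% in ES, and the mean GC content of counted genes was 48.4 to 48.6% in vehicle day 3 and 48.8 to 49.4% in ES. Neither range overlaps between the groups. After correction for GC content and length, which covered 17418 genes, 12009 genes were called, 2774 beyond 2-fold. The part of the mitochondrial share was not tested. In bulk RNA, fewer cells of a type and less RNA per cell cannot be told apart.

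Mouse ES cells in standard culture resemble the epiblast of the blastocyst, a state called naive pluripotency. Leukaemia inhibitory factor (LIF), acting through STAT3, and the transcription factors Esrrb, Klf4, Tfcp2l1 and Nanog hold that state. When it is left, these factors are lost first and the cells pass through a formative state like the epiblast just after implantation, marked by Fgf5, Otx2 and the de novo DNA methyltransferases, before germ layer genes come on. Pou5f1 (Oct4) and Sox2 are shared by both states.

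The change was broad. Of 18901 genes tested, 12274 (64.9%) were called, with 6262 higher (33.1%) and 6012 lower (31.8%) in vehicle day 3. Beyond 2-fold, 3097 genes (16.4%) were called, of which 1689 were higher (8.94% of those tested) and 1408 lower (7.45%). The median log2 fold change of all genes tested was 0.01, with quartiles at −0.55 and 0.60. In 12498 of the genes tested (66.1%) the vehicle day 3 and ES libraries did not overlap. Statements below that groups are separate or do not overlap stand beside that share. Among called genes 28.8% had changed by less than 0.5 on the log2 scale. Large fitted changes ran mostly upward, with 287 called genes higher and 78 lower by over 4 on that scale. Genes with 0 counts in a group enter these counts at fitted values. At the 3-count floor, Fgf5 and Psmb8 stay over 4 (log2 bounds 9.2 and 6.65), but Apoa4 and Hoxb2 do not (3.57 and 2.93). A mean of at least 1 CPM in vehicle day 3 with no count in ES was seen in 24 genes, against 3 genes the other way. Log2 CPM correlated across genes at 0.987 to 0.989 within vehicle day 3, at 0.986 to 0.988 within ES and at 0.921 to 0.927 between groups (Pearson, genes are not independent replicates). The beyond 2-fold count depends on the tool, since limma on log2(TPM + 1) called 1126, with 479 higher and 647 lower, and DESeq2 called 936 lower.

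**Figure D1:**
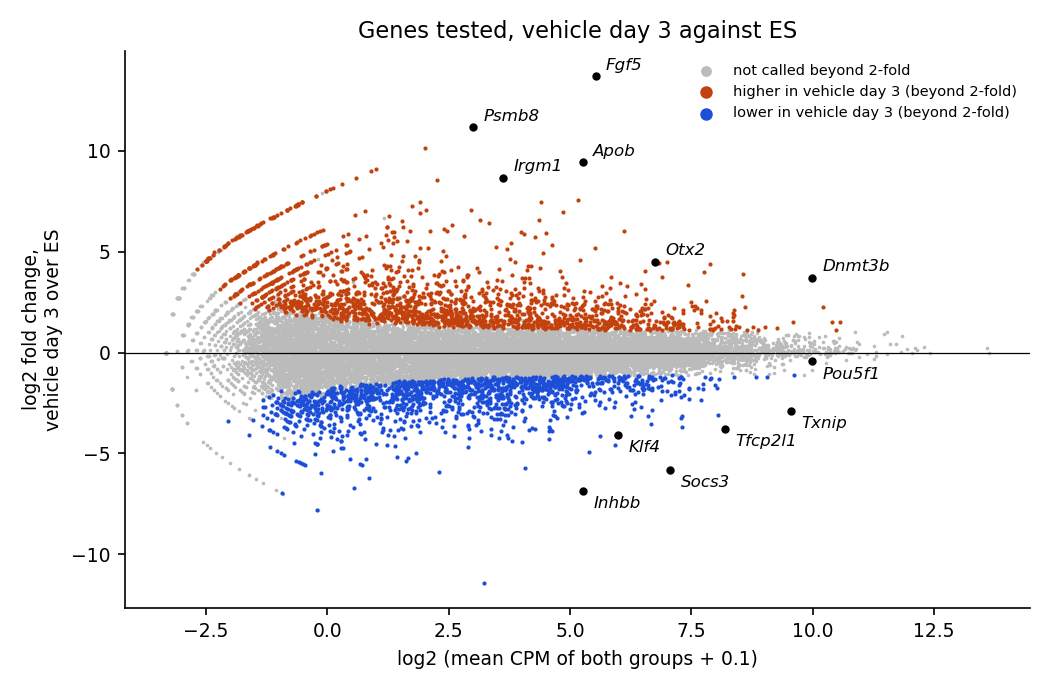
Each point is 1 of the 18901 genes tested, with the log2 of its mean CPM over both groups (plus 0.1) on the x axis and its log2 fold change, vehicle day 3 over ES, on the y axis. Orange and blue points were called beyond 2-fold, 1689 higher and 1408 lower. Fold changes of genes with 0 counts in a group, such as Fgf5 and Psmb8, are fitted values that depend on the prior count.

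The transcription factors of the naive state fell in 16 of 19 and rose in 3, 11 of them beyond 2-fold downward, with a median log2 fold change of −1.52. Over all genes tested 33.1% rose and 31.8% fell, 8.94% and 7.45% beyond 2-fold, and the median was 0.01. The counts of every list below stand beside these shares. Klf4 (ENSMUSG00000003032, mm10 chromosome 4, 55527143 to 55532466), a Krüppel-like factor of the naive network, had 7.12, 6.32 and 7.74 CPM in vehicle day 3, against 149.6, 115 and 97.4 CPM in ES. All 3 vehicle day 3 libraries lay below every ES library (log2 fold change −4.09 ± 0.16, adjusted p = 3.12e-16). Prdm14, which represses DNA methylation in naive cells, had 1.30, 0.903 and 1.21 CPM in vehicle day 3, against 19.3, 20.1 and 19.2 CPM in ES, without overlap (log2 fold change −4.09 ± 0.27, adjusted p = 5.46e-12). Tbx3 had 16.4, 21 and 22.1 CPM in vehicle day 3, against 165, 126 and 129.7 CPM in ES (log2 fold change −2.82 ± 0.12, adjusted p = 2.47e-15). Nr5a2, an orphan nuclear receptor, fell by a log2 of 2.53 ± 0.12, and Klf2 and Klf5 fell by 1.75 ± 0.14 and 1.52 ± 0.09. The fall was smaller for Nr0b1 (−0.81 ± 0.13) and Gbx2 (−0.85 ± 0.28), whose vehicle day 3 libraries still lay below the ES libraries. The 3 members that rose were Zfp281 (1.36 ± 0.07) and Tcf7l1 (1.20 ± 0.10), both known to help ES cells leave the naive state, and Sall4 (0.34 ± 0.08). Zfp281 had 182, 190.3 and 171 CPM in vehicle day 3, against 64.9, 77.2 and 69.3 CPM in ES, with no overlap. Zfp42 (Rex1), a widely used marker of naive cells, had 53.5, 61.1 and 54.6 CPM in vehicle day 3, against 288, 251 and 232 CPM in ES (log2 fold change −2.19 ± 0.08, adjusted p = 1.66e-16). It was the only one of 14 naive members with a RefSeq promoter (250 bases before to 50 after a start, GRCm38.p6, matched by symbol) to hold the OCT motif ATGCAAAT on either strand, which 1.97% of all genes with a promoter there held, and 1 of 17 formative members, Sfrp2, held it as well. A stretch of 120 bases of that promoter, chr8:43307132-43307251 (minus strand), is shown 5′ to 3′ on the gene's strand with the motif in capitals.
Zfp42: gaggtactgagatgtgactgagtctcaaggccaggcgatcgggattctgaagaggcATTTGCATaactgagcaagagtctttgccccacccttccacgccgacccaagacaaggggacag
The summed level of the naive factors was 1223 to 1365 CPM in vehicle day 3 and 3186 to 3706 CPM in ES.

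The LIF receptor and its STAT3 genes fell in 12 of 17 and rose in 2. Socs3 (ENSMUSG00000053113, mm10 chromosome 11, 117966079 to 117970047), the feedback inhibitor that STAT3 induces, had 4.53, 4.39 and 4.95 CPM in vehicle day 3, against 304, 249.6 and 237 CPM in ES. The groups lie far apart (log2 fold change −5.83 ± 0.15, adjusted p = 2.03e-19). Bcl3, another STAT3 target, had 1.94, 2.05 and 2.0 CPM in vehicle day 3, against 32.1, 23.9 and 22.4 CPM in ES (log2 fold change −3.71 ± 0.20, adjusted p = 1.32e-13). The pathway's own parts fell too. Lifr, the LIF receptor, had 31.4, 35.0 and 34.4 CPM in vehicle day 3, against 112, 134 and 119.6 CPM in ES (log2 fold change −1.86 ± 0.07, adjusted p = 4.18e-16). Stat3 itself had 42.4, 41.4 and 46.1 CPM in vehicle day 3, against 139, 137 and 141 CPM in ES (log2 fold change −1.68 ± 0.07, adjusted p = 3.72e-16). The shared receptor subunit Il6st (−0.36 ± 0.06) and the kinase Jak1 (−0.62 ± 0.06) fell less, and Jak2 was not called (−0.11 ± 0.08, adjusted p = 0.236). Pim1, Pim3, Junb and Cish fell by log2 values of 1.16 ± 0.07, 1.26 ± 0.08, 0.99 ± 0.14 and 1.17 ± 0.17. Socs2 (0.64 ± 0.08) and the phosphatase Ptpn11 (0.57 ± 0.05), which carries FGF signals to ERK, rose. Of 16 members with a promoter in the RefSeq table, 2 held the STAT motif TTCCNGGAA on either strand, Cish and Gfap, against 1.35% of 27025 genes with a promoter in the table.

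Genes shared by naive and later pluripotent cells split, with 9 of 18 higher and 7 lower. Pou5f1 had 858, 933 and 859.5 CPM in vehicle day 3, against 1228, 1091 and 1165 CPM in ES, a fall of 0.39 ± 0.08 (adjusted p = 8.17e-05) with separate groups. The Sox2 libraries had 195, 244 and 213 CPM in vehicle day 3, against 493, 426 and 381 CPM in ES (log2 fold change −0.99 ± 0.10, adjusted p = 7.13e-09). Nanog had 129, 129 and 136 CPM in vehicle day 3, against 316, 322 and 289 CPM in ES, so all vehicle day 3 libraries were under the ES range. Other falls were Fbxo15 (−1.83 ± 0.09), the threonine dehydrogenase Tdh (−1.23 ± 0.08), Cripto (−1.13 ± 0.07), the Nodal co-receptor, and Dppa5a (−0.93 ± 0.11). Foxd3 rose most in this list. It encodes a forkhead factor needed for the epiblast and had 38.2, 52.7 and 47.2 CPM in vehicle day 3, against 7.54, 6.11 and 5.30 CPM in ES (log2 fold change 2.86 ± 0.17, adjusted p = 5.79e-13). L1td1, an RNA-binding protein derived from a LINE-1 element, had 482, 528 and 470.1 CPM in vehicle day 3, against 172, 175 and 145 CPM in ES (log2 fold change 1.59 ± 0.07, adjusted p = 8.4e-15), and Zscan10 and Dppa2 rose by 1.03 ± 0.10 and 1.02 ± 0.10. Lin28a, which blocks let-7 processing, rose by 0.69 ± 0.05, and Dppa4 (0.11 ± 0.07) and Gdf3 (0.13 ± 0.10) were not called.

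Of 25 formative and primed epiblast genes 23 rose, 21 of them beyond 2-fold, with a median of 2.77 whether the gene at 0 in ES is taken at its fitted value or at its bound. Fgf5 (ENSMUSG00000029337, mm10 chromosome 5, 98254184 to 98277030), a growth factor of the post-implantation epiblast, had 92.3, 92.8 and 91.7 CPM in vehicle day 3, against 0 counts in all 3 ES libraries. It was thus seen in every vehicle day 3 library and in no ES library, at least 587-fold higher against the 3-count floor per library (adjusted p = 1.2e-19). Sall2 (ENSMUSG00000049532, mm10 chromosome 14, 52311172 to 52328762), a zinc finger factor, had 124, 143 and 139 CPM in vehicle day 3, against 2.67, 1.78 and 1.73 CPM in ES (log2 fold change 6.04 ± 0.16, adjusted p = 3.78e-19). Zic2 (ENSMUSG00000061524, mm10 chromosome 14, 122475435 to 122479852), a zinc finger factor of the post-implantation epiblast, had 81.1, 92.4 and 91.7 CPM in vehicle day 3, against 2.77, 2.51 and 1.99 CPM in ES (log2 fold change 5.18 ± 0.14, adjusted p = 7.96e-19). In both genes every vehicle day 3 library was above 80 CPM and every ES library below 3 CPM. Otx2, a homeobox factor that redirects Oct4 to formative enhancers, had 195, 213 and 211 CPM in vehicle day 3, against 10.2, 9.24 and 7.66 CPM in ES (log2 fold change 4.51 ± 0.08, adjusted p = 1.46e-21). Pou3f1, a relative of Oct4, had 194, 235 and 222 CPM in vehicle day 3, against 10.7, 10.6 and 8.65 CPM in ES (log2 fold change 4.44 ± 0.12, adjusted p = 2.7e-19). Neither showed overlap between the groups. Lef1 (3.44 ± 0.16), Sox3 (3.52 ± 0.19), the N-cadherin gene Cdh2 (3.27 ± 0.16), Grhl2 (3.01 ± 0.10), which keeps epithelial enhancers open, and the carbonic anhydrase Car14 (2.86 ± 0.10) also rose beyond 2-fold. The ETS factor Etv4 went the other way, with 30.1, 39.2 and 35.4 CPM in vehicle day 3, against 166, 135 and 139 CPM in ES (log2 fold change −2.07 ± 0.12, adjusted p = 2.59e-13), while its relative Etv5 rose (0.51 ± 0.06). Ski was the other member that fell (−0.26 ± 0.08, adjusted p = 0.00624).

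**Figure D2:**
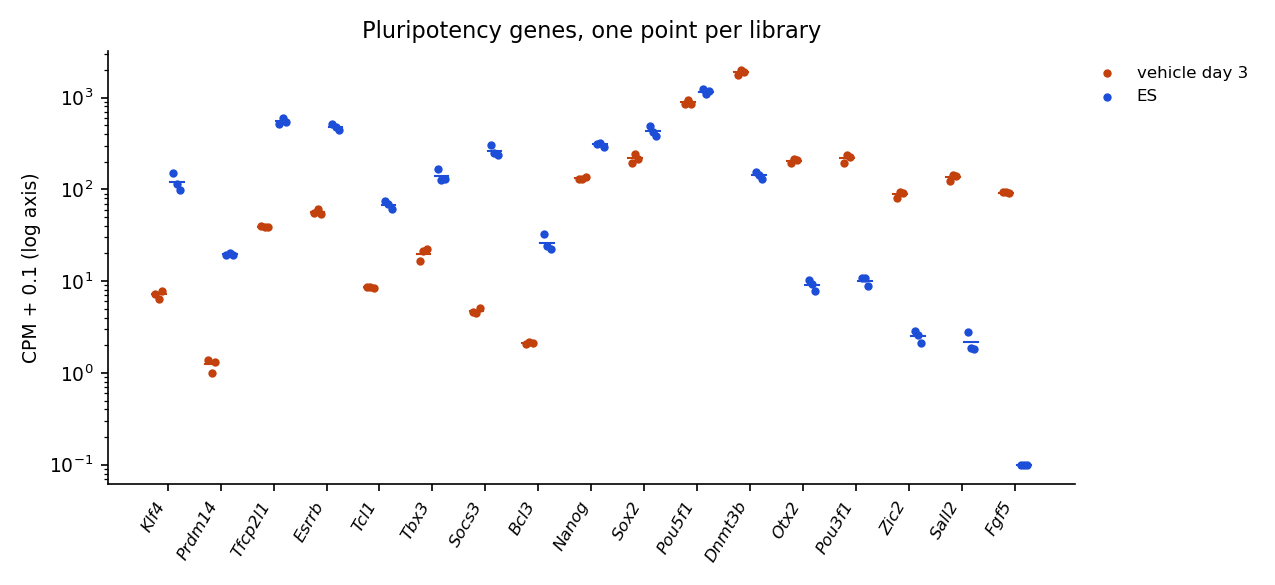
CPM plus 0.1 on a log axis for 17 pluripotency genes, with 1 point per library and a bar at the mean, vehicle day 3 in orange and ES in blue. Naive and STAT3 genes on the left are lower in vehicle day 3 and formative genes on the right are higher. The groups do not overlap in any gene shown, nor in 66.1% of all genes tested. Fgf5 sits at 0 CPM in the 3 ES libraries.

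Genes of DNA methylation split by role. The de novo enzymes rose. Dnmt3b had 1759, 1974 and 1917 CPM in vehicle day 3, against 156, 143 and 131 CPM in ES (log2 fold change 3.72 ± 0.09, adjusted p = 6.35e-20). Dnmt3a had 484, 551 and 490.2 CPM in vehicle day 3, against 162, 144 and 142 CPM in ES (log2 fold change 1.77 ± 0.06, adjusted p = 9.57e-17). Both sets of libraries are apart, and Dnmt3b is among the 6 genes with the largest rise in CPM. Dnmt3l, their partner without enzyme activity, rose by 0.30 ± 0.06. The maintenance enzyme Dnmt1 (−0.50 ± 0.07) and its guide Uhrf1 (−0.25 ± 0.08) fell. Of the enzymes that oxidise methylcytosine, Tet2 had 47.6, 41.9 and 45.1 CPM in vehicle day 3, against 144, 187 and 158 CPM in ES (log2 fold change −1.86 ± 0.12, adjusted p = 1.54e-12) and Tet1 fell by 0.59 ± 0.07, while Tet3 rose by 0.90 ± 0.10. Apobec1, Gadd45b and Smug1 fell by 2.07 ± 0.13, 1.98 ± 0.14 and 1.32 ± 0.08, and Zfp57, which keeps imprints methylated, had 88.7, 105 and 89.6 CPM in vehicle day 3, against 359, 324 and 320.2 CPM in ES (log2 fold change −1.83 ± 0.07, adjusted p = 3.09e-16). In all, 7 of 20 members rose and 12 fell.

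Germline genes that promoter methylation silences in the embryo fell in 11 of 22 and rose in 4, with a median of −0.43. Piwil2, which binds piRNAs, had 13.5, 13.7 and 12.8 CPM in vehicle day 3, against 43.3, 42.4 and 42.5 CPM in ES (log2 fold change −1.68 ± 0.11, adjusted p = 2.86e-12). The meiotic cohesins Smc1b and Stag3 fell by 1.6 ± 0.12 and 1.08 ± 0.07, and the helicase gene Mov10l1 fell by 1.45 ± 0.10. Dazl (−1.0 ± 0.14), Hormad1 (−0.97 ± 0.14) and Ddx4 (−0.43 ± 0.08) fell less. Tdrd1, a Tudor domain protein of the same piRNA pathway, rose instead, with 7.83, 9.15 and 7.74 CPM in vehicle day 3, against 2.72, 3.18 and 2.36 CPM in ES (log2 fold change 1.58 ± 0.17, adjusted p = 2.01e-08). The E-box CACGTG, which reads the same on both strands, lay in the promoters of 12 of 21 members (57.1%), against 8.09% of all genes with a promoter in the table. Of those 12 genes, 5 were called lower and 3 higher. Stretches of 120 bases within these promoters are shown because they carry the E-box in genes that moved in opposite directions, with the E-box in capitals (RefSeq, GRCm38.p6, 5′ to 3′ on the gene's strand, Stag3 at chr5:138280282-138280401 (plus strand), Ddx4 at chr13:112652311-112652430 (minus strand), Tdrd1 at chr19:56826089-56826208 (plus strand)).
Stag3: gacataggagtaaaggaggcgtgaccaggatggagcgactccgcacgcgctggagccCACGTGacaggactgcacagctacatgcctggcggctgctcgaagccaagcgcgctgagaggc
Ddx4: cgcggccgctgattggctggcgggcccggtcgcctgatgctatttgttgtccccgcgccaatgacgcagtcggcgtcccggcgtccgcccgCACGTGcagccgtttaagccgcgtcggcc
Tdrd1: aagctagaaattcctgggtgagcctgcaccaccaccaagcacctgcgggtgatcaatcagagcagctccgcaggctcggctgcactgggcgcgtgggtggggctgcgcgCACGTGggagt
The E-box is present in the first pair, which fell by 1.08 ± 0.07 and 0.43 ± 0.08, and in Tdrd1, which rose. A match is a description of these letters only.

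Markers of the 2-cell-like state, a rare state of ES cultures that resembles the 2-cell embryo, rose in 15 of 16 and none fell, with a median of 1.89. Zscan4f had 102, 85.0 and 80.0 CPM in vehicle day 3, against 28.9, 28.9 and 26.0 CPM in ES (log2 fold change 1.67 ± 0.18, adjusted p = 2.31e-08), and Zscan4c, Zscan4d and Zscan4b rose by 1.54 ± 0.22, 2.02 ± 0.20 and 2.02 ± 0.16. The deubiquitinase copies Usp17la, Usp17lb and Usp17le rose by 2.06 ± 0.28, 2.08 ± 0.31 and 2.29 ± 0.26. Within each family the members are near-identical copies that share reads, so how the counts split between them is uncertain and they are not independent. Duxf3, the family of the activating factor Dux, had 1.47, 1.44 and 2.11 CPM in vehicle day 3, against 0.733, 0.418 and 0.629 CPM in ES (log2 fold change 1.49 ± 0.38, adjusted p = 0.00159). Spz1 was seen with 42 counts over the vehicle day 3 libraries and 2 over the ES libraries, a ratio of 22.9 (95% exact interval 5.95 to 195, counting error only). Zfp352 was not called (0.71 ± 0.55). The summed level was 431 to 527 CPM in vehicle day 3 and 229 to 249.7 CPM in ES. At the later times Zscan4f was at 27.5 CPM in vehicle day 5 and 15.5 CPM in vehicle day 7.

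Nodal and activin act through SMAD2 and SMAD3 and pattern the early embryo, and in this list a ligand subunit fell while known targets rose. Of 23 members 12 rose and 6 fell. Inhbb (ENSMUSG00000037035, mm10 chromosome 1, 119415465 to 119422248), the activin B subunit, had 0.530, 0.903 and 0.526 CPM in vehicle day 3, against 83.8, 81.0 and 63.7 CPM in ES (log2 fold change −6.86 ± 0.16, adjusted p = 6.91e-20). Nodal itself had 48.6, 53.6 and 55.7 CPM in vehicle day 3, against 41.1, 33.0 and 30.9 CPM in ES (log2 fold change 0.59 ± 0.09, adjusted p = 8.1e-06). Cripto, which Nodal needs as co-receptor, was lower as given above, and so was the convertase Pcsk6 (−1.95 ± 0.10). Among targets, the feedback inhibitor Lefty1 had 77.8, 104 and 93.4 CPM in vehicle day 3, against 9.68, 8.72 and 9.65 CPM in ES (log2 fold change 3.29 ± 0.14, adjusted p = 1.18e-15). Lefty2 rose by 2.42 ± 0.11. Skil, a SMAD co-repressor, had 556, 517 and 503 CPM in vehicle day 3, against 120, 151 and 132 CPM in ES (log2 fold change 1.97 ± 0.07, adjusted p = 2.34e-16). The groups did not overlap in Lefty1 or Skil. The activin antagonist Fst had 8.71, 6.92 and 5.95 CPM in vehicle day 3, against 0.576, 0.940 and 0.839 CPM in ES (log2 fold change 3.18 ± 0.24, adjusted p = 7.07e-11). Receptors changed less, with Acvr2b at 0.71 ± 0.10 and Acvr1b at −0.83 ± 0.06.

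FGF signalling through ERK drives exit from the naive state, and 15 of its 25 genes rose and 6 fell, with a median of 1.08. Of the ligands, Fgf4 had 126, 138 and 133 CPM in vehicle day 3, against 263, 284 and 266 CPM in ES (log2 fold change −1.03 ± 0.07, adjusted p = 1.64e-11), whereas Fgf5, Fgf15 (1.88 ± 0.12) and Fgf8 (2.18 ± 0.33) rose. Of the receptors, Fgfr2 had 13.4, 10.1 and 13.6 CPM in vehicle day 3, against 3.45, 3.92 and 3.30 CPM in ES (log2 fold change 1.80 ± 0.12, adjusted p = 4.29e-12), Fgfr3 and Fgfr4 fell by 2.15 ± 0.18 and 1.86 ± 0.13, and Fgfr1 was not called (−0.07 ± 0.07). The phosphatases that ERK induces rose, with Dusp6 at 84.2, 89.9 and 79.3 CPM in vehicle day 3, against 20.7, 19.4 and 18.6 CPM in ES (log2 fold change 2.11 ± 0.08, adjusted p = 1.45e-16). Dusp4 and Dusp5 rose by 2.39 ± 0.09 and 1.27 ± 0.13. Spry1 (1.40 ± 0.12), Spry4 (0.58 ± 0.10) and Il17rd (1.45 ± 0.08) rose with them, and Spry2 was not called (0.22 ± 0.12). Egr1 had 13.5, 20.3 and 23.2 CPM in vehicle day 3, against 3.24, 1.41 and 1.99 CPM in ES (log2 fold change 3.10 ± 0.26, adjusted p = 2.87e-10), and Fos was not called (−0.16 ± 0.21).

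Wnt targets and feedback genes rose in 17 of 28 and fell in 7. Dkk1, a secreted inhibitor, had 6.59, 6.80 and 7.32 CPM in vehicle day 3, against 0.314, 0.0522 and 0.472 CPM in ES (log2 fold change 4.6 ± 0.26, adjusted p = 3.4e-13). The ligand Wnt8a had 7.30, 6.80 and 6.63 CPM in vehicle day 3, against 0.209, 0.313 and 0.367 CPM in ES (log2 fold change 4.51 ± 0.34, adjusted p = 4.63e-11). Fzd7, a receptor, had 216, 232 and 221 CPM in vehicle day 3, against 80.8, 79.2 and 77.5 CPM in ES (log2 fold change 1.5 ± 0.05, adjusted p = 4.15e-17), while Fzd5 fell by 1.34 ± 0.06. Axin2, a general target, rose by 0.86 ± 0.13. Cdx1 was the strongest fall, with 0.118, 0 and 0.263 CPM in vehicle day 3, against 7.75, 5.69 and 3.93 CPM in ES. Its counts summed to 7 in vehicle day 3 and 332 in ES, a ratio of 0.023 (95% exact interval 0.00917 to 0.0479). Among BMP genes 8 of 24 rose and 7 fell, near the shares of all genes tested (33.1% higher and 31.8% lower). Bmp7 had 1.59, 1.62 and 2.58 CPM in vehicle day 3, against 20.9, 19.2 and 18.3 CPM in ES (log2 fold change −3.31 ± 0.14, adjusted p = 1.6e-15). Bmp4 fell by 1.02 ± 0.18, yet the target Id3 had 33.7, 29.0 and 31.1 CPM in vehicle day 3, against 2.36, 2.51 and 2.46 CPM in ES (log2 fold change 3.67 ± 0.10, adjusted p = 7.73e-19), and Id1 and Id2 rose by 0.87 ± 0.08 and 1.05 ± 0.10. Retinoid genes split 7 to 7 among 18, not far from those shares. Stra8 (ENSMUSG00000029848, mm10 chromosome 6, 34920163 to 34939344), a retinoic acid target and meiotic regulator, had 2.65, 2.53 and 2.84 CPM in vehicle day 3, against 88.1, 77.9 and 77.4 CPM in ES (log2 fold change −4.92 ± 0.14, adjusted p = 6.61e-19). Cyp26a1, which degrades retinoic acid and is also induced by it, had 20.4, 20.6 and 23.8 CPM in vehicle day 3, against 0.680, 0.157 and 0.839 CPM in ES (log2 fold change 5.26 ± 0.21, adjusted p = 4.85e-16). Crabp1 fell by 2.16 ± 0.16, and Rdh10, an enzyme of retinoic acid synthesis, rose by 1.74 ± 0.15. LEF/TCF (CTTTGAT, either strand) lay in 2 of 20 Wnt gene promoters, Sp5 and Wnt5b, neither of them called, against 4.29% of all genes.

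Of 27 visceral endoderm genes 18 rose and 2 fell, with a median of 1.93 (0.76 by limma on log2(TPM + 1)). Visceral endoderm is the extraembryonic layer that feeds the early embryo. Its endocytic receptors rose. Lrp2 (ENSMUSG00000027070, mm10 chromosome 2, 69424340 to 69586065), the receptor megalin, had 681, 704 and 734 CPM in vehicle day 3, against 47.3, 49.4 and 46.4 CPM in ES (log2 fold change 3.89 ± 0.06, adjusted p = 1.07e-22). Cubn, its partner cubilin, had 377, 405 and 454 CPM in vehicle day 3, against 24.4, 29.9 and 22.0 CPM in ES (log2 fold change 4.02 ± 0.12, adjusted p = 2.28e-18), and the adaptors Dab2 and Amn rose by 3.76 ± 0.08 and 2.27 ± 0.14. Apolipoprotein genes differed among themselves. Apob (ENSMUSG00000020609, mm10 chromosome 12, 7977648 to 8016835) had 80.6, 66.2 and 83.6 CPM in vehicle day 3, against 0.157, 0 and 0.157 CPM in ES, a ratio of 737 from summed counts of 4057 in vehicle day 3 and 6 in ES (95% exact interval 338 to 2010). Ttr, the thyroid hormone carrier, had 11.4, 7.70 and 8.85 CPM in vehicle day 3, against 0, 0 and 0.0524 CPM in ES, a ratio of 534 (95.4 to 21100). Apoa4 had 2.36, 1.56 and 1.68 CPM in vehicle day 3, against 0 counts in all 3 ES libraries, at least 11.9-fold higher. Apoa2 had 0.177, 0.120 and 0.158 CPM in vehicle day 3, against 0.471, 0.574 and 0.262 CPM in ES and was not called (adjusted p = 0.117), and neither was Apoe (−0.05 ± 0.09). Late markers stayed at the edge of detection in vehicle day 3. Afp had 1.18, 0.421 and 1.16 CPM in vehicle day 3, against 0 counts in all 3 ES libraries. Alb had no count in any vehicle day 3 library and so did not rise. The factors Hnf4a and Foxa1 rose by 1.23 ± 0.10 and 1.25 ± 0.31, and Cited1 had 21.4, 21.5 and 22.5 CPM in vehicle day 3, against 1.36, 1.36 and 0.944 CPM in ES (log2 fold change 4.15 ± 0.15, adjusted p = 9.57e-17). Trf, transferrin, fell (−2.56 ± 0.19), and so did Vil1 (−0.44 ± 0.15). The summed level of the list was 1921 to 2155 CPM in vehicle day 3 and 564 to 654 CPM in ES.

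Of 19 definitive endoderm genes 13 were called higher and 4 lower, with a median of 1.10 (1.04 with the gene at 0 in ES at its bound, 0.42 by limma on log2(TPM + 1)). Foxa2 had 4.42, 5.36 and 5.37 CPM in vehicle day 3, against 0.680, 0.313 and 0.315 CPM in ES (log2 fold change 3.51 ± 0.23, adjusted p = 6.11e-12). Sox17 had 3.94, 4.39 and 5.26 CPM in vehicle day 3, against 2.72, 1.93 and 1.99 CPM in ES (log2 fold change 1.04 ± 0.19, adjusted p = 5.52e-05), both without overlap. Cxcr4 was not called (−0.01 ± 0.34), and Kit (−1.86 ± 0.09) and Hhex (−1.19 ± 0.14) fell. Of 19 primitive streak genes 12 were called higher and 2 lower, with a median of 1.21 (0.87 with the gene at 0 in ES at its bound, 0.31 by limma on log2(TPM + 1)). Eomes had 28.4, 31.1 and 34.8 CPM in vehicle day 3, against 6.18, 4.23 and 5.14 CPM in ES (log2 fold change 2.60 ± 0.15, adjusted p = 2.6e-13). Lhx1 had 6.30, 7.52 and 7.84 CPM in vehicle day 3, against 0.0523, 0 and 0.105 CPM in ES. In contrast, brachyury (T), the defining streak gene, had 0.648, 0.301 and 0.526 CPM in vehicle day 3, against 0.419, 0.783 and 0.577 CPM in ES and was not called (adjusted p = 0.712). Mixl1, another streak factor, rose, with 0.589, 0.482 and 0.842 CPM in vehicle day 3, against 0, 0.104 and 0.0524 CPM in ES, a ratio of 12.4 from summed counts of 34 in vehicle day 3 and 3 in ES (95% exact interval 3.88 to 62.9). The T-box motif AGGTGTGA, on either strand, lay in 1 of 17 streak gene promoters (5.88%), against 1.48% of all genes. Of 17 mesoderm genes 6 were called higher and 5 lower, near the shares of all genes tested (33.1% higher and 31.8% lower). The blood factor Tal1 (3.69 ± 0.46) was up and Hand1 (−2.06 ± 0.23), Gata2 (−2.75 ± 0.24) and Pdgfrb (−2.45 ± 0.12) were down. Of 22 neural genes 10 were called higher and 6 lower. Sox11 had 83.2, 87.8 and 94.1 CPM in vehicle day 3, against 12.8, 12.8 and 12.1 CPM in ES (log2 fold change 2.81 ± 0.08, adjusted p = 1.98e-18). Pax6 had 2.65, 2.47 and 2.68 CPM in vehicle day 3, against 0.523, 0.940 and 0.682 CPM in ES (log2 fold change 1.85 ± 0.26, adjusted p = 1.54e-06). Sox1, the earliest neural marker, had 1.06, 1.20 and 0.579 CPM in vehicle day 3, against 5.44, 5.12 and 3.36 CPM in ES (log2 fold change −2.31 ± 0.25, adjusted p = 2.66e-08). The summed levels were 598 to 636 CPM in vehicle day 3 and 419 to 448 CPM in ES for definitive endoderm, 679 to 755 CPM in vehicle day 3 and 473 to 549 CPM in ES for the streak, 44.0 to 53.5 CPM in vehicle day 3 and 81.7 to 97.3 CPM in ES for mesoderm and 423 to 463 CPM in vehicle day 3 and 206 to 242 CPM in ES for neural genes. Of 23 primitive and parietal endoderm genes 12 were called higher and 6 lower. Smooth and heart muscle gave 6 higher and 4 lower of 14.

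Markers of other cells that a culture could hold gave no uniform change. Of 15 trophoblast genes 5 rose and 6 fell. Tfap2c, which marks trophoblast and also naive and germ cells, had 3.65, 3.19 and 3.32 CPM in vehicle day 3, against 49.3, 41.2 and 41.2 CPM in ES (log2 fold change −3.69 ± 0.16, adjusted p = 2.29e-15), Krt18 rose by 2.77 ± 0.10, and the placental genes Prl3d1, Tpbpa and Psg17 had 0 counts in all 6 libraries. Of 16 fibroblast genes 4 rose and 4 fell. Col1a1 had 6.59, 5.60 and 5.26 CPM in vehicle day 3, against 7.96, 5.69 and 5.77 CPM in ES and was not called, and Lum had 0 counts in all 6 libraries. The summed level was 228 to 269.5 CPM in vehicle day 3 and 316 to 369 CPM in ES for fibroblast genes and 173 to 194 CPM in vehicle day 3 and 144 to 169 CPM in ES for trophoblast genes. Of 8 blood and immune genes tested none rose and 2 fell, and Ptprc and Tyrobp had 0 counts in all 6. Laptm5, a lysosomal protein best known in blood cells, had 4.59, 7.52 and 6.0 CPM in vehicle day 3, against 48.7, 40.4 and 44.5 CPM in ES (log2 fold change −2.88 ± 0.14, adjusted p = 2.8e-14). The blood list summed to 15.8 to 22.6 CPM in vehicle day 3 and 67.2 to 82.1 CPM in ES. The part of such cells in the results was not tested beyond these values.

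Anterior HoxB genes appeared at low levels. Hoxb1 had 1.82, 1.26 and 1.47 CPM in vehicle day 3, against 0, 0 and 0.0524 CPM in ES, a ratio of 87.2 from summed counts of 80 in vehicle day 3 and 1 in ES (95% exact interval 15.2 to 3490). Hoxb2 had 1.65, 1.20 and 0.737 CPM in vehicle day 3, against 0 counts in all 3 ES libraries, at least 7.62-fold higher, and Hoxb3 had 1.41, 1.08 and 1.58 CPM in vehicle day 3, against 0.0523, 0 and 0 CPM in ES, a ratio of 78.5 (13.6 to 3140). Hoxb4 had 0.883, 1.02 and 1.63 CPM in vehicle day 3, against 0.105, 0.261 and 0.210 CPM in ES (log2 fold change 2.59 ± 0.45, adjusted p = 2.36e-05). All 4 stood apart from ES. Of 30 Hox genes 15 were tested, 6 rose and 2 fell, and the falls were in Hoxb9 (−1.36 ± 0.33) and Hoxc4 (−1.16 ± 0.46). By vehicle day 5 and day 7 Hoxb1 was at 0.206 and 0.0369 CPM.

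Genes of the interferon response and of antigen processing rose in 22 of 38 and fell in 9, with 19 higher and 2 lower beyond 2-fold. The median was 1.45 fitted, 1.31 with genes at 0 in ES taken at their bound, and 0.40 by limma on log2(TPM + 1). Irf1 (ENSMUSG00000018899, mm10 chromosome 11, 53770014 to 53778374), a transcription factor of this response, had 154, 163 and 168 CPM in vehicle day 3, against 16.1, 15.0 and 14.4 CPM in ES (log2 fold change 3.41 ± 0.10, adjusted p = 2.71e-18). Psmb8 (ENSMUSG00000024338, mm10 chromosome 17, 34197721 to 34201454), a catalytic subunit of the immunoproteasome, had 17.8, 13.7 and 15.8 CPM in vehicle day 3, against 0 counts in all 3 ES libraries, at least 100-fold higher (adjusted p = 1.22e-14). It was detected in each vehicle day 3 library and in no ES library. The other subunits had smaller fold changes. Psmb10 had 57.6, 57.2 and 53.4 CPM in vehicle day 3, against 10.2, 12.4 and 14.2 CPM in ES (log2 fold change 2.19 ± 0.11, adjusted p = 1.94e-14). Psmb9, the third subunit, had 4.71, 3.37 and 4.16 CPM in vehicle day 3, against 3.30, 3.24 and 2.52 CPM in ES and was not called (adjusted p = 0.0502). The proteasome activators Psme1 and Psme2 rose by 1.34 ± 0.06 and 2.05 ± 0.09. Among parts of antigen loading, Tap2 and Tapbp rose by 1.55 ± 0.12 and 1.61 ± 0.09, Tap1 fell by 0.37 ± 0.09, B2m rose by 0.57 ± 0.12, and the MHC class I genes H2-K1 (0.11 ± 0.07) and H2-D1 (0.17 ± 0.08) were not called.

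The GTPases that interferon induces rose steeply. Irgm1 (ENSMUSG00000046879, mm10 chromosome 11, 48861968 to 48871683) had 26.8, 23.7 and 22.5 CPM in vehicle day 3, against 0.0523, 0.104 and 0 CPM in ES, a ratio of 464 from summed counts of 1276 in vehicle day 3 and 3 in ES (95% exact interval 158 to 2250). Gbp2 had 15.1, 15.7 and 15.0 CPM in vehicle day 3, against 0.0523, 0.0522 and 0.210 CPM in ES, a ratio of 146 (66.6 to 398), and Gbp3 had 7.06, 5.84 and 6.48 CPM in vehicle day 3, against 0, 0 and 0.105 CPM in ES, a ratio of 185 (50.9 to 1540). Irgm2 and Igtp rose by 3.06 ± 0.19 and 2.12 ± 0.12. The RNA sensors Rigi (1.66 ± 0.11) and Ifih1 rose. Ifih1 had 1.41, 0.722 and 1.05 CPM in vehicle day 3, against 0 counts in all 3 ES libraries, at least 6.77-fold higher. Oasl2 had 17.2, 22.3 and 20.1 CPM in vehicle day 3, against 0.314, 0.104 and 0.262 CPM in ES (log2 fold change 6.41 ± 0.24, adjusted p = 2.34e-16). Some transcription factors of the pathway fell or were not called. Stat2 had 41.5, 40.9 and 41.8 CPM in vehicle day 3, against 86.6, 74.7 and 77.1 CPM in ES (log2 fold change −0.94 ± 0.08, adjusted p = 3.81e-10). Irf9 was not called (−0.07 ± 0.11), and Irf7 (−1.43 ± 0.59) stayed under 1 CPM. The membrane proteins Ifitm1, Ifitm2 and Ifitm3 fell by 0.97 ± 0.10, 1.23 ± 0.09 and 0.55 ± 0.09, and Oas1a fell by 1.44 ± 0.22. Ifit1 and Isg15, widely used markers of the type I response, rose but stayed under 1 CPM in all 6 libraries. Ifit1 had 0.589, 0.241 and 0.316 CPM in vehicle day 3, against 0 counts in all 3 ES libraries, at least 2.43-fold higher (adjusted p = 2.64e-05). Isg15 had 0.471, 0.542 and 0.368 CPM in vehicle day 3, against 0, 0.104 and 0.105 CPM in ES, a ratio of 6.54 from summed counts of 24 in vehicle day 3 and 4 in ES (95% exact interval 2.25 to 25.9).

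The interferon response motif, taken as GAAA followed by any 2 bases and GAAA, on either strand, lay in the promoters of 18 of 33 members with one in the table (54.5%), against 3.99% of all genes. Of those 18, 12 were called higher and 4 lower. Stretches of 120 bases within these promoters are shown for 4 members that rose and 2 that fell, since the motif is in both, with matches in capitals (overlapping matches run together; RefSeq, GRCm38.p6, 5′ to 3′ on the gene's strand). They are Irgm1 at chr11:48871421-48871540 (minus strand), Gbp2 at chr3:142620543-142620662 (plus strand), Gbp3 at chr3:142559924-142560043 (plus strand), Irgm2 at chr11:58214857-58214976 (plus strand), Ifitm2 at chr7:140955962-140956081 (minus strand) and Stat2 at chr10:128270248-128270367 (plus strand).
Irgm1: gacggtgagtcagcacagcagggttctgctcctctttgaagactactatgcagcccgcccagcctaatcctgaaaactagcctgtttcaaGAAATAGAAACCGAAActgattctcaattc
Gbp2: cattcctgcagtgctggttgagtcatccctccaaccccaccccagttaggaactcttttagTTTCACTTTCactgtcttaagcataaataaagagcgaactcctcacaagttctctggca
Gbp3: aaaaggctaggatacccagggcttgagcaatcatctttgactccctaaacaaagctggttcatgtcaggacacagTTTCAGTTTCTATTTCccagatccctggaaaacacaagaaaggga
Irgm2: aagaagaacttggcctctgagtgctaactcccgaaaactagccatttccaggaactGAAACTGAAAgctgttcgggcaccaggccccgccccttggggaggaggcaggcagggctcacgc
Ifitm2: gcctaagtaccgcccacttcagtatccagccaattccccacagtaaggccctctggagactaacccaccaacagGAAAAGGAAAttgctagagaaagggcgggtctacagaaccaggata
Stat2: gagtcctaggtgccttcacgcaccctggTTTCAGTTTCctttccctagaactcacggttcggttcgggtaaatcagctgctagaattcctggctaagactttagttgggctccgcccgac
Irgm1 and Gbp3 hold overlapping matches close to the start, and Stat2 holds its match further away. The first 4 belong to genes higher in vehicle day 3 and the last pair to genes lower there.

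**Figure D3:**
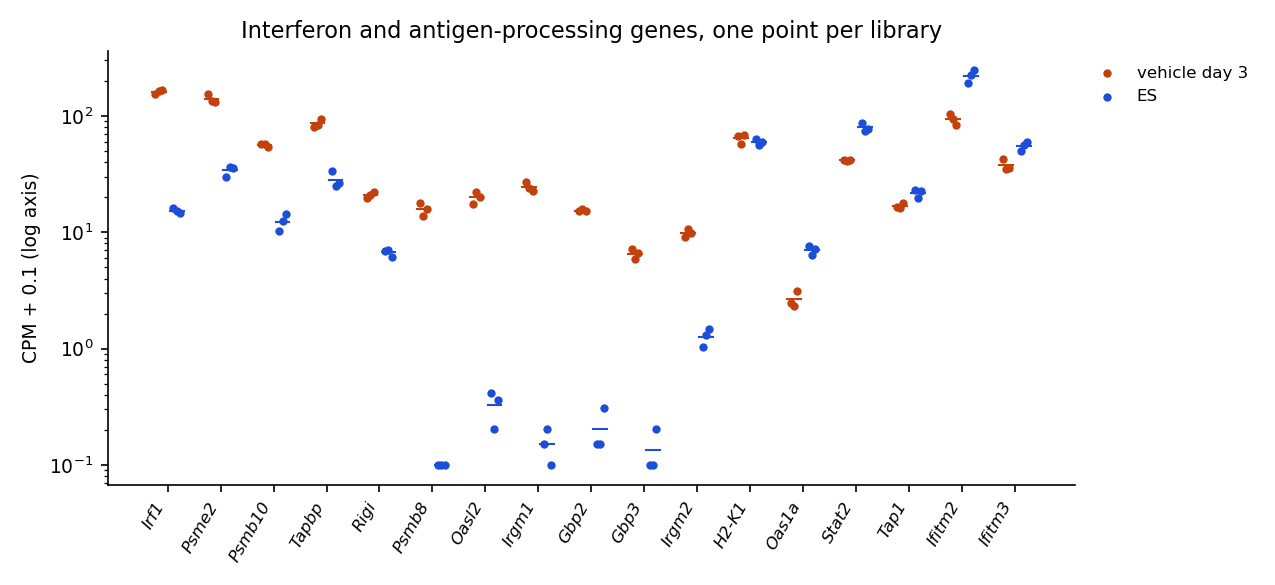
CPM plus 0.1 on a log axis for 17 interferon and antigen-processing genes, with 1 point per library and a bar at the mean, vehicle day 3 in orange and ES in blue. Irf1, Psme2, Psmb8, Psmb10, Tapbp, Rigi, Oasl2 and the GTPases are higher in vehicle day 3, Oas1a, Stat2, Tap1, Ifitm2 and Ifitm3 are lower, and H2-K1 overlaps.

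Among 27 epithelial genes 18 rose and 7 fell. Esrp1, a splicing factor of epithelia, had 117, 108 and 119 CPM in vehicle day 3, against 24.0, 22.4 and 24.1 CPM in ES (log2 fold change 2.29 ± 0.06, adjusted p = 2.83e-19). Podxl, which lines apical membranes, had 311, 308 and 347 CPM in vehicle day 3, against 71.9, 71.3 and 67.9 CPM in ES (log2 fold change 2.19 ± 0.06, adjusted p = 1.42e-19). Both are separate between groups. E-cadherin (Cdh1) rose by 0.41 ± 0.06 and the tight junction gene Cgn by 1.03 ± 0.08, while Vim (−1.28 ± 0.10) and Zeb1 (−1.43 ± 0.15), markers of mesenchyme, fell, and so did the keratin Krt19 (−1.20 ± 0.13) and the epithelial factor Grhl3 (−2.03 ± 0.15). Of 11 claudins tested 5 rose and 4 fell, with Cldn6 at 118, 101 and 116 CPM in vehicle day 3, against 28.2, 26.1 and 29.4 CPM in ES (log2 fold change 2.0 ± 0.07, adjusted p = 7.24e-17) and Cldn4 at −1.27 ± 0.09. Among 25 basement membrane and integrin genes 13 fell and 6 rose. Nid1 (ENSMUSG00000005397, mm10 chromosome 13, 13437551 to 13512269), which links laminin to collagen IV, had 31.0, 31.2 and 33.5 CPM in vehicle day 3, against 288, 287 and 285 CPM in ES (log2 fold change −3.17 ± 0.07, adjusted p = 5.83e-20). Fibronectin (Fn1) had 451, 518 and 503 CPM in vehicle day 3, against 1182, 1063 and 979.8 CPM in ES (log2 fold change −1.13 ± 0.07, adjusted p = 5.52e-13). The laminin chain gene Lamb3 fell by 2.51 ± 0.26, whereas the collagen IV chains Col4a1 and Col4a2 rose by 0.60 ± 0.12 and 0.73 ± 0.10.

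Of 25 glycolysis genes 10 were called higher and 9 lower, near the shares of all genes tested (33.1% higher and 31.8% lower), and the median was 0.02 (0.15 after correction for GC content and length). Ldha, which makes lactate, had 2332, 2220 and 2288 CPM in vehicle day 3, against 1763, 1641 and 1696 CPM in ES (log2 fold change 0.42 ± 0.05, adjusted p = 5.12e-08), and Ldhb fell by 0.77 ± 0.07. The lactate carriers Slc16a1 and Slc16a3 rose by 0.87 ± 0.07 and 0.98 ± 0.08. Hexokinase 1 (Hk1) had 58.7, 61.5 and 67.4 CPM in vehicle day 3, against 292, 243 and 259 CPM in ES (log2 fold change −2.08 ± 0.09, adjusted p = 3.98e-15), Pfkp fell by 1.05 ± 0.07, and Gpi1, Aldoa and Pgam1 were not called. Pyruvate entry and the citric acid cycle held 22 lower and 3 higher genes among 33. The mitochondrial pyruvate carrier genes Mpc1 (9.48, 10.2 and 9.37 CPM in vehicle day 3, against 38.2, 42.1 and 44.5 CPM in ES) and Mpc2 (−1.17 ± 0.13) fell, and so did the pyruvate dehydrogenase kinases Pdk4 (−1.97 ± 0.12) and Pdk2 (−1.21 ± 0.14), against a rise of Pdk1 (1.12 ± 0.06). Txnip, which limits glucose uptake, had 152, 179 and 205 CPM in vehicle day 3, against 1376, 1254 and 1351 CPM in ES (log2 fold change −2.89 ± 0.13, adjusted p = 9.19e-15), the largest fall in CPM of any called gene.

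Nuclear genes of oxidative phosphorylation fell in 29 of 38 and none rose, with a median of −0.35 and none beyond 2-fold. Mitochondrially encoded genes rose in 10 of 13 and none fell, with a median of 1.09, which was 0.40 after correction for GC content and length. The mitochondrial share of the libraries, given above, moved with the groups, and its part in this rise was not tested. mt-Cytb had 2006, 2041 and 1856 CPM in vehicle day 3, against 357, 453 and 435 CPM in ES (log2 fold change 2.25 ± 0.08, adjusted p = 7.01e-17). mt-Nd1 had 2431, 2258 and 2095 CPM in vehicle day 3, against 679, 808 and 878 CPM in ES (log2 fold change 1.52 ± 0.09, adjusted p = 8.25e-13). Both are separate between groups. mt-Co1 had 14320, 12850 and 13150 CPM in vehicle day 3, against 10120, 11920 and 12440 CPM in ES (log2 fold change 0.23 ± 0.08, adjusted p = 0.0212), a call lost without vehicle day 3 replicate 1 (adjusted p = 0.0894) or ES replicate 1 (adjusted p = 0.139). Its neighbours mt-Co2 and mt-Co3 were not called. The predicted genes Gm28661 and Gm28437 on chromosome 1, which lie in a nuclear copy of mitochondrial DNA, rose by 0.80 ± 0.08 and 1.0 ± 0.09 and had the largest rises in CPM. Reads from mitochondrial RNA and from such copies cannot be told apart here, so the levels of both are uncertain.

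Among 23 genes of serine, threonine and folate metabolism 12 rose and 9 fell. Mat2a, which makes S-adenosylmethionine, had 370.3, 360.5 and 324 CPM in vehicle day 3, against 142, 162 and 157 CPM in ES (log2 fold change 1.19 ± 0.07, adjusted p = 2.38e-13), and the thymidylate synthase gene Tyms rose by 0.84 ± 0.08. Aldh1l2, Cbs and Amt fell by 1.74 ± 0.17, 1.11 ± 0.10 and 1.04 ± 0.06. Targets of ATF4, the amino acid stress factor, fell in 14 of 27 and rose in 9, with Asns at 192, 206 and 199.6 CPM in vehicle day 3, against 489, 448 and 459 CPM in ES (log2 fold change −1.22 ± 0.05, adjusted p = 4.31e-16), and Ddit3 and Nupr1 at −1.93 ± 0.17 and −2.25 ± 0.15. Hypoxia genes split with 8 of 21 higher and 9 lower, Egln3 at 1.44 ± 0.08 and Vegfa at −1.26 ± 0.10. Cholesterol synthesis and uptake held 10 higher and 8 lower genes of 25. Glutathione metabolism held 12 higher and 11 lower genes of 31. The hypoxia, cholesterol and glutathione counts stand beside 33.1% higher and 31.8% lower over all genes tested. Of 9 vitamin B6 genes 7 fell and Pnp rose, all by less than 2-fold. Pdxk, the pyridoxal kinase, had 36.6, 39.1 and 41.0 CPM in vehicle day 3, against 48.9, 47.1 and 45.2 CPM in ES (log2 fold change −0.28 ± 0.08, adjusted p = 0.00306). Writers and erasers of lysine acylation fell in 10 of 19 and rose in 5. The acetyltransferase Ep300, also known to add lactyl groups, rose by 0.81 ± 0.06, and Acss2 had 12.4, 12.5 and 13.3 CPM in vehicle day 3, against 35.3, 35.0 and 31.9 CPM in ES (log2 fold change −1.42 ± 0.11, adjusted p = 7.23e-11).

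Most genes of the ribosome biogenesis and Myc lists rose. The share of counts from ribosomal protein genes overlapped between the groups, at 5.52 to 6.06% in vehicle day 3 and 5.36 to 6.76% in ES. Of 30 ribosome biogenesis genes 25 were higher and 1 lower, with a median of 0.62, and 14 of 19 genes of the Myc family and its partners and targets were higher and 2 lower. Myc had 36.0, 42.9 and 36.2 CPM in vehicle day 3, against 5.91, 5.38 and 3.30 CPM in ES (log2 fold change 2.98 ± 0.15, adjusted p = 3.24e-14). Mycl had 54.1, 61.8 and 62.1 CPM in vehicle day 3, against 12.7, 10.2 and 9.28 CPM in ES (log2 fold change 2.46 ± 0.12, adjusted p = 2.8e-14). No library of either gene overlapped between the groups. Mycn rose by 1.07 ± 0.11. Ncl, nucleolin, had 3697, 3748 and 3648 CPM in vehicle day 3, against 1954, 1992 and 1924 CPM in ES (log2 fold change 0.92 ± 0.05, adjusted p = 8.57e-14), and the polymerase I subunits Polr1b and Polr1e rose by 1.16 ± 0.06 and 1.22 ± 0.08. Targets of p53 fell in 15 of 24 and rose in 4. Cdkn1a (p21) had 38.4, 39.1 and 38.7 CPM in vehicle day 3, against 147, 134 and 145 CPM in ES (log2 fold change −1.87 ± 0.07, adjusted p = 5.39e-17), and Gdf15 and Rrm2b fell by 2.12 ± 0.25 and 1.67 ± 0.12, while Trp53 itself rose by 0.33 ± 0.09. Of 43 cell cycle genes 15 rose and 18 fell, where 33.1% of all genes tested rose and 31.8% fell. Ccnd3 (−1.78 ± 0.09) and E2f2 (−1.65 ± 0.12) fell, Ccnd2 (1.81 ± 0.10) and E2f3 (1.72 ± 0.07) rose, and Mki67 changed by −0.23 ± 0.06. Of 17 BCL2 family genes 8 fell and 4 rose, with Bcl2 at 1.12, 1.02 and 0.684 CPM in vehicle day 3, against 0.105, 0.157 and 0.105 CPM in ES. Immediate early and heat shock members numbered 11 higher and 5 lower of 24. In the lysosome list 11 of 29 were higher and 14 lower, with the cathepsin gene Ctsh at 34.6, 29.8 and 34.0 CPM in vehicle day 3, against 3.92, 2.51 and 2.57 CPM in ES (log2 fold change 3.45 ± 0.14, adjusted p = 7.82e-16). Tfeb, a regulator of lysosome genes, at 3.53, 4.94 and 3.95 CPM in vehicle day 3, against 30.3, 22.8 and 21.3 CPM in ES (log2 fold change −2.58 ± 0.16, adjusted p = 1.69e-12).

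Of 27 Polycomb genes 12 rose and 12 fell, with Kdm2b alone higher and Phf19 alone lower beyond 2-fold, where 16.4% of all genes tested were called beyond 2-fold. Phf19, an accessory subunit of Polycomb repressive complex 2, had 1.82, 2.05 and 2.47 CPM in vehicle day 3, against 18.1, 17.1 and 16.3 CPM in ES (log2 fold change −3.01 ± 0.15, adjusted p = 2.8e-14). Kdm2b, which brings Polycomb to CpG islands, had 212, 236 and 229 CPM in vehicle day 3, against 91.4, 82.1 and 79.9 CPM in ES (log2 fold change 1.42 ± 0.08, adjusted p = 7.08e-13). The catalytic subunit Ezh2 fell by 0.54 ± 0.05. Zinc finger repressors and their partners rose in 16 of 23 and fell in 3, with Zfp809, which silences retroviruses, at 30.5, 31.6 and 30.6 CPM in vehicle day 3, against 9.37, 9.82 and 8.76 CPM in ES (log2 fold change 1.73 ± 0.09, adjusted p = 6.57e-14). Of 15 let-7 pathway genes 13 rose and 1 fell, with Lin28b at 76.5, 70.7 and 71.9 CPM in vehicle day 3, against 14.6, 17 and 17.4 CPM in ES (log2 fold change 2.16 ± 0.10, adjusted p = 1.51e-14) and Dgcr8 at 1.11 ± 0.07. Of 32 imprinted genes 21 rose and 4 fell. Magel2 had 16.2, 18.7 and 17.2 CPM in vehicle day 3, against 0.0523, 0.209 and 0.262 CPM in ES (log2 fold change 6.58 ± 0.32, adjusted p = 1.66e-14), and its neighbours in the Prader-Willi region Snrpn and Ndn rose by 1.83 ± 0.07 and 1.42 ± 0.11. Peg3 had 190.3, 179.5 and 193 CPM in vehicle day 3, against 56.0, 57.7 and 55.4 CPM in ES (log2 fold change 1.74 ± 0.05, adjusted p = 2.96e-18), H19 and Igf2 rose by 1.33 ± 0.08 and 1.69 ± 0.13, and Slc22a18 fell, with 0.883, 0.542 and 1.0 CPM in vehicle day 3, against 8.85, 7.57 and 7.29 CPM in ES (log2 fold change −3.27 ± 0.22, adjusted p = 9.44e-12).

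**Figure D4:**
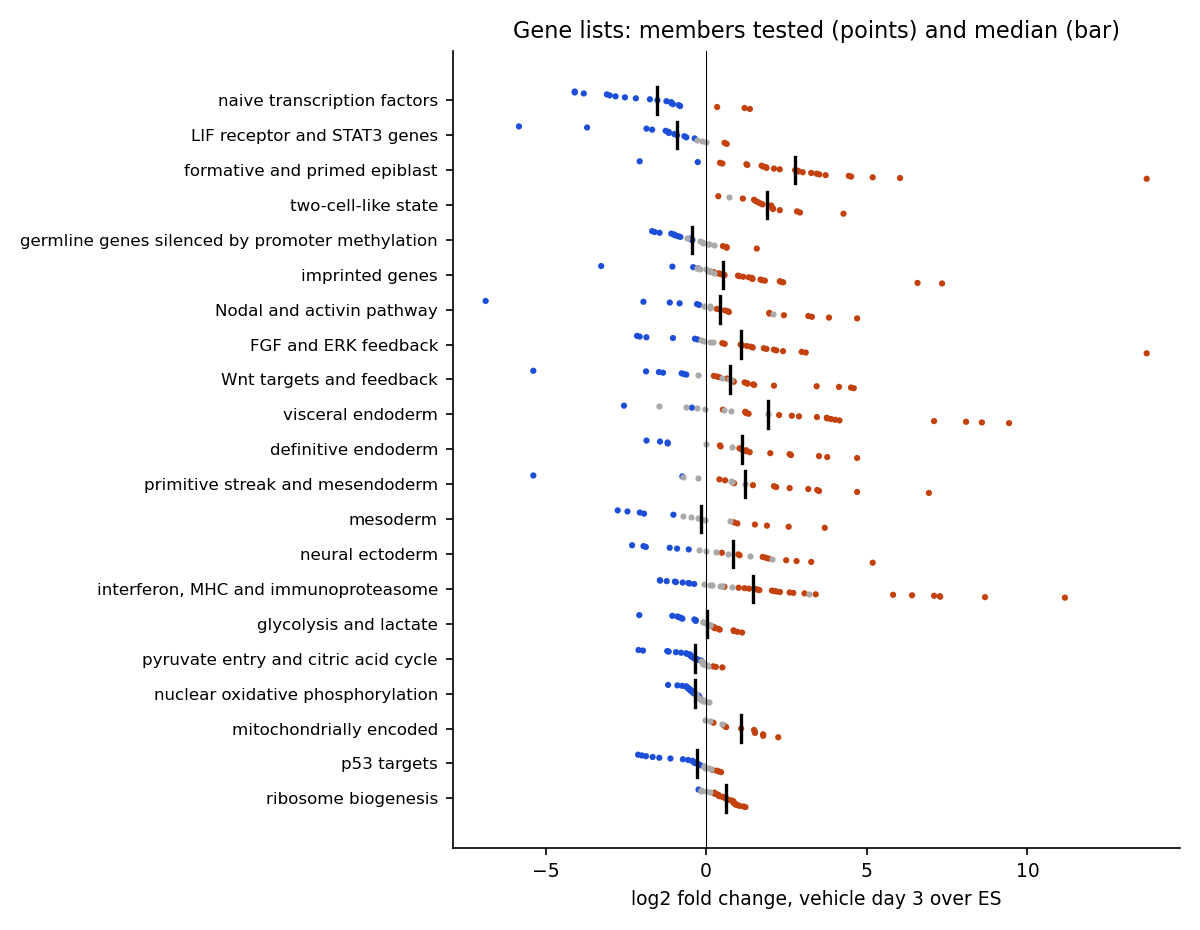
Log2 fold changes, vehicle day 3 over ES, of the members tested in 21 gene lists, with orange points called higher, blue points called lower, grey points not called, and a black bar at the list's median. Naive factors have their median at −1.52 and formative genes at 2.77. Points of genes at 0 in a group are fitted values.

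Some of the steepest changes lay outside these lists. Prss12 (ENSMUSG00000027978, mm10 chromosome 3, 123446913 to 123506597), the secreted protease neurotrypsin, had 8.12, 6.26 and 9.21 CPM in vehicle day 3, against 0 counts in all 3 ES libraries, at least 50.1-fold higher. Slitrk5, a neuronal adhesion receptor, was at least 17.8-fold higher, Tmem200a at least 14.4-fold, Exosc6, an RNA exosome subunit, at least 24.4-fold, and Adam1a, a sperm metalloprotease, at least 11.2-fold, each with 0 counts in ES. Exosc6 ran unevenly, with 3.83 ± 0.508 CPM in vehicle day 3, 0.32 ± 0.385 in vehicle day 5 and 9.86 ± 2.89 in vehicle day 7. Its counts may thus be uncertain, and whether reads were assigned to it evenly was not tested. Cwc22rt7, one of several near-identical copies whose counts are uncertain, had 1.82, 4.82 and 4.00 CPM in vehicle day 3, against 0 counts in all 3 ES libraries. On the other side, Mras (ENSMUSG00000032470, mm10 chromosome 9, 99385420 to 99437381), a Ras-related GTPase, had 0.530, 0.963 and 0.368 CPM in vehicle day 3, against 36.5, 31.8 and 30.5 CPM in ES (log2 fold change −5.74 ± 0.20, adjusted p = 6.4e-17). Smim45, a small membrane protein, had 0.0589, 0 and 0.526 CPM in vehicle day 3, against 5.81, 6.21 and 7.97 CPM in ES. Catip, a ciliogenesis gene, had 0.294, 0.0602 and 0.158 CPM in vehicle day 3, against 4.14, 5.01 and 3.78 CPM in ES. In each of these genes all vehicle day 3 libraries were below the ES range. Msln, Lrcol1, Bhmt and Ly6a had 1 to 4 counts over the 3 vehicle day 3 libraries, with ratios to ES of 0.0112 (95% exact interval 0.00135 to 0.0411), 0.0118 (0.000297 to 0.0677), 0.0227 (0.00463 to 0.0677) and 0.0352 (0.00943 to 0.0923). Among the largest falls in CPM were also the translation genes Eif4a2 (−0.87 ± 0.06) and Pabpc1 (−0.34 ± 0.05).

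The levels at vehicle day 5 and day 7 are set beside those of the first step. Esrrb, of the naive network, had 478 ± 33.8 CPM in ES, 56.2 ± 3.69 at day 3, 18.2 ± 1.17 at day 5 and 13.7 ± 0.978 at day 7. Nanog had 309 ± 17.5 CPM in ES, 131 ± 4.49 at day 3, 150.1 ± 7.74 at day 5 and 50 ± 2.32 at day 7. Both were highest in ES. Dnmt3b had 143 ± 12.5 CPM in ES, 1883 ± 111 at day 3, 889.9 ± 23.3 at day 5 and 285 ± 17.8 at day 7. Otx2 had 9.02 ± 1.26 CPM in ES, 206 ± 9.95 at day 3, 188 ± 3.49 at day 5 and 65.1 ± 3.07 at day 7. Foxd3 had 6.32 ± 1.13 CPM in ES, 46.0 ± 7.30 at day 3, 6.82 ± 0.628 at day 5 and 1.15 ± 0.207 at day 7. In these 3 genes the day 3 mean was the highest of the course. Fgf5 had 0 counts in ES and means of 92.2 ± 0.523 CPM at day 3, 137 ± 3.66 at day 5 and 39.1 ± 4.23 at day 7, so it was highest at day 5. Irf1 had 15.2 ± 0.864 CPM in ES, 161 ± 7.30 at day 3, 71.7 ± 1.63 at day 5 and 35.7 ± 5.04 at day 7. Psmb8 had 0 counts in ES and means of 15.8 ± 2.06 CPM at day 3, 9.41 ± 1.65 at day 5 and 8.14 ± 1.67 at day 7. Both were thus highest at day 3 as well. Apob had 0.105 ± 0.0908 CPM in ES, 76.8 ± 9.34 at day 3, 977 ± 111 at day 5 and 1560 ± 99.7 at day 7. Lrp2 had 47.7 ± 1.57 CPM in ES, 706 ± 26.4 at day 3, 1172 ± 22.3 at day 5 and 1076 ± 35.9 at day 7. These endoderm genes were higher at day 5 and day 7 than at day 3. These steps share libraries with the comparison above and were not tested here.

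**Figure D5:**
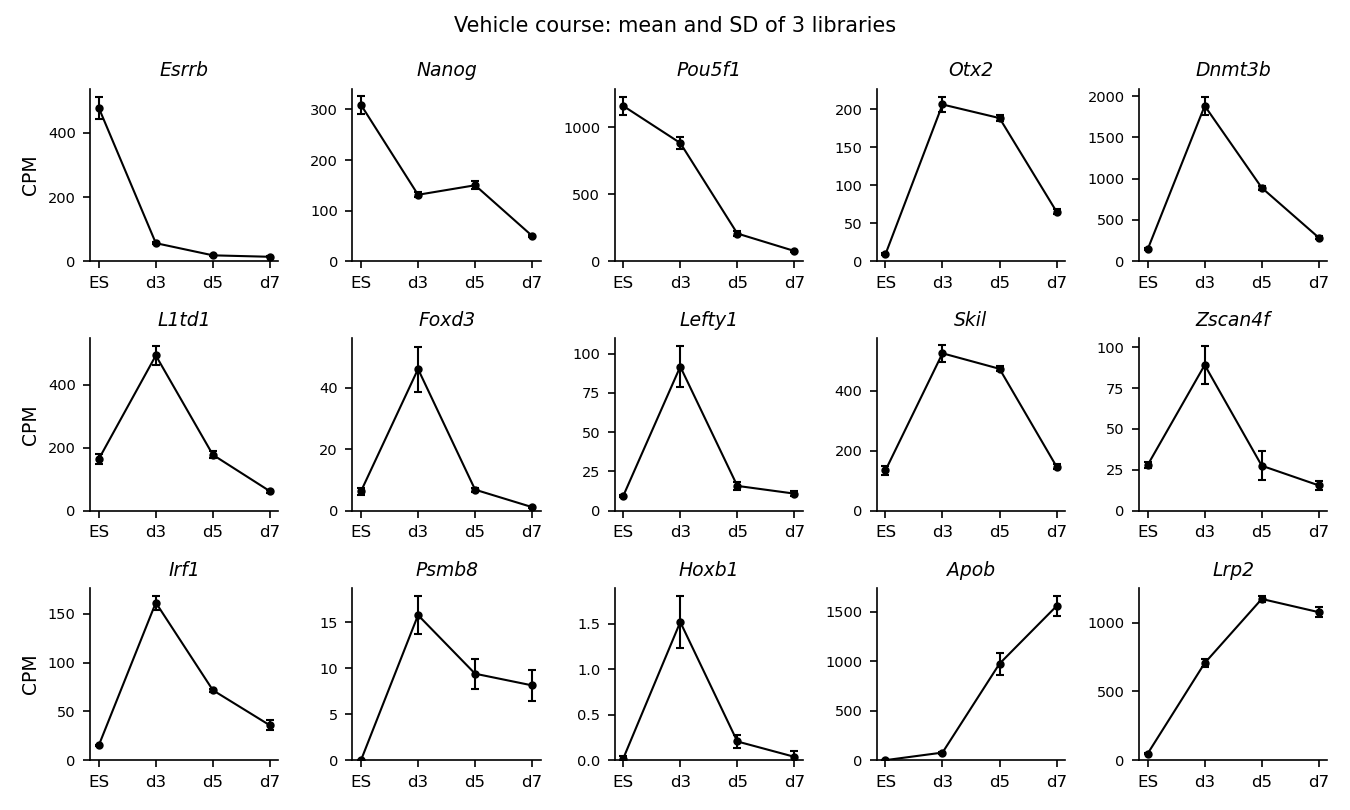
Mean CPM with the SD of 3 libraries for 15 genes in ES and in vehicle at days 3, 5 and 7. Esrrb is highest in ES, Dnmt3b, L1td1, Foxd3, Lefty1, Zscan4f, Irf1, Psmb8 and Hoxb1 are highest at day 3, and Apob is highest at day 7.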

How the data were processed

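RNA was sequenced from 21 libraries in 7 groups of 3, and vehicle day 3 was set against ES. The authors deposited expected counts, which they estimated per gene without normalization, together with their TPM and FPKM values, and the FPKM values were not used here. The build was mm10, per the submitters' processing notes, and no source used here names the aligner or counter. The labels' protocols speak of both total RNA and a small-RNA enrichment. Expected counts were rounded to whole numbers. Genes kept by filterByExpr were fitted with edgeR 4.0.16 in R 4.3.3 over all 21 libraries, with TMM factors, a mean per group, the quasi-likelihood test and glmTreat beyond 2-fold, and p-values were adjusted by Benjamini-Hochberg. SE is the log2 fold change over the root of F. Ratios from few counts carry exact (Clopper-Pearson) 95% intervals. These rest on counts summed over the libraries of a group and cover counting error only, not the spread between libraries. Gene positions come from the GENCODE M21 annotation and promoters from RefSeq (GRCm38.p6), where 32851 promoters of 27025 genes were searched.

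Members and lists were chosen with earlier results of these data known, so the lists are described by counts and medians and not tested. Named genes are the 12 highest and 12 lowest protein-coding fold changes with at least 1 CPM in the higher group and groups that do not overlap, the 6 largest differences in CPM each way, up to 6 members per list with the smallest p, members against their list's direction, and other list members where a sentence needed them. Some genes that this rule names are not reported here. On simulated counts for 17961 genes, the test recovered 98% of genes set to a log2 change of 1 and 66% at 0.5, with 5 false calls. Each size was set in 50 genes that were not low in counts, and all genes were given 1 common spread. Most genes were left unchanged there, unlike in these data. The rates thus do not cover genes with low counts or a wider spread. Alternatives were other scalings and filters, DESeq2 1.42.0, limma 3.58.1 on log2(TPM + 1), a GC content and length correction, a replicate block and leaving out each library. Same-numbered libraries did not deviate together (correlations −0.15, −0.02 and −0.04), so the numbers were not taken as pairs.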

Additional observations from a re-analysis of the deposited data

How the results depend on the processing

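The count of genes called ran between 10883 and 12486 over all alternatives. With the spread estimated from only the 6 libraries compared, it was 11166. Beyond 2-fold, limma on log2(TPM + 1) called 1126 genes, 479 higher and 647 lower, and DESeq2 called 936 lower, where the cause was not tested. The other counts stayed within 1.5 times. Of 4436 values of 296 named genes, 4429 kept direction and call, none reversed, and 7 lost the call: Bid, Mmp2, Bcl2 and Bcl2l2 by limma, and mt-Co1 by limma (0.14, adjusted p = 0.177) and without replicate 1 of either group. The 296 genes were named mostly for a small p or a large change in the main fit, so most were bound to keep their call. Their stability says little about the other called genes. Medians of 18 of 49 lists moved on the TPM scale. The trophoblast median turned to 0.052 after GC content and length correction, which covered 17418 genes (92.2%). The retinoid median, −0.22 over all libraries, ran from −0.33 to 0.21 when single libraries were left out, and was 0.15 without vehicle day 3 replicate 1 and 0.21 without ES replicate 1. With the replicate block, 12208 genes were called, 12129 of them shared, and 3077 beyond 2-fold; the numbers do not pair the libraries. Having 3 libraries a group limits what low genes can show.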

Other observations

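X-linked genes were called higher beyond 2-fold more often than genes at large, in 91 of 601 (15.1%, against 8.94% of all genes tested), and lower in 24 (3.99%, against 7.45%). The median log2 fold change of X-linked genes was 0.16. This set was chosen after its values were seen and was not tested. Xist, the RNA that coats the inactive X, had 58.4, 51.8 and 44.2 CPM in vehicle day 3, against 6.07, 9.19 and 6.19 CPM in ES (log2 fold change 2.84 ± 0.13, adjusted p = 7.08e-15). Ftx, a neighbouring RNA, had 43.4, 42.0 and 44.2 CPM in vehicle day 3, against 5.08, 7.99 and 6.24 CPM in ES (log2 fold change 2.75 ± 0.12, adjusted p = 2e-15). Tsix, the antisense partner of Xist, had 2.77, 3.43 and 3.11 CPM in vehicle day 3, against 2.77, 2.25 and 3.10 CPM in ES, and was not called (adjusted p = 0.436). No source used here says whether counting used strand, so reads of Xist and Tsix may not be separable. By later times mean Xist was at 25 ± 2.22 CPM in vehicle day 5 and 8.28 ± 0.689 CPM in vehicle day 7. None of these values shows whether an X was inactivated, which was not tested.

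Processed pseudogenes, copies of spliced RNAs that can share reads with their parent genes, were seldom called lower beyond 2-fold, in 6 of 398 (1.51%, against 7.45% of all genes tested). They were higher beyond 2-fold in 45 (11.3%, against 8.94%). This class, too, was chosen after its values were seen and was not tested.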
